A study of Mus musculus with 12 samples.

Results

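The genes described here encode SR proteins (serine/arginine-rich splicing factors) and their TRA2 relatives, heterogeneous nuclear ribonucleoproteins (hnRNPs), the polypyrimidine tract binding proteins Ptbp1 and Ptbp3, the SF3A and SF3B subunits, the U2AF subunits and the epithelial splicing regulators Esrp1 and Esrp2. They were chosen by symbol and by a mean level of at least 1 CPM (counts scaled to the total of each library) over all kidneys. Of the 23420 genes counted, 46 matched by symbol and 44 had that mean level: 12 SR and TRA2 genes, 17 hnRNPs, 2 PTB genes, 8 SF3A and SF3B genes, 3 U2AF genes and 2 ESRP genes. The genes just inside the limit were Srsf2, with a mean of 2.71 CPM, and Hnrnpa0, with a mean of 2.98 CPM. Outside it were Hnrnpa3, with a mean of 0.24 CPM, and Srsf12, with no count in any of the 12 kidneys. Hnrnpa3 had 96 counts in set A kidney 3, 12 in set B kidney 2 and none elsewhere. Of the 100-base stretches of its transcript, 27.5% recur in 25 other genes, 24 of them pseudogenes. Whether this lowered its counts was not tested, so its low value may not show its level in kidney. All 44 genes passed the low-count filter of the test.

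The data were RNA-seq counts of kidneys from male C57BL/6J mice, aged 8 to 15 weeks by the study's methods, with 4 control kidneys and 8 ischemic kidneys. The methods describe the controls as kidneys taken at nephrectomy. By contrast, a protocol label common to all samples gives 20 min of pedicle clamping and 24 h of reperfusion for the controls too. In the methods, surgery to place the clamp, with or without removal of the other kidney, came at least 24 h before ischemia. Effects of that surgery and of ischemia cannot be told apart in comparisons with controls taken at nephrectomy. The 8 ischemic kidneys had 20 min of ischemia and 24 h of reperfusion and form a pair of sets of 4, set A with titles that name anaesthesia and set B with titles that name conscious mice. Their group field states the opposite, so the neutral names are used and no direction is given to anaesthesia. The labels number the kidneys without saying that each came from a separate mouse, so p-values measure the spread between these samples. Counted totals ran from 15367342 to 44793350, with the lowest median in set B, and 3 counts, taken as the floor for counting error only, corresponded to 0.067 to 0.195 CPM. Replicates differed by more than sampling noise in every pair within a group.

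SR proteins bind exonic enhancers through RNA recognition motifs and recruit the splicing machinery through their serine- and arginine-rich domains, whereas many hnRNPs coat the nascent transcript and restrain the use of splice sites. U2AF reads the end of the intron, and SF3A and SF3B are parts of the U2 particle that settles on the branch point. ESRP proteins direct epithelial splice forms, and PTB proteins repress exons next to pyrimidine-rich tracts. Several of these genes control their own mRNA level through exons that lead to its decay.

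Promoters were compared because several of these genes were higher in both ischemic sets. Of the 44 genes, 37 had a promoter entry in RefSeq (assembly GRCm38.p6), taken as the 250 bases before the annotated start. The 3 shown belong to genes called higher in both sets under every alternative, and each is cut to the longest stretch outside exons of coding genes. Capitals mark the CCAAT box, the GC box GGGCGG, the ETS family core CCGGAA, the E-box CACGTG and the TATA element TATAAA on either strand, none of which contains another.
Hnrnpab, chr11:51606882-51607131, minus strand: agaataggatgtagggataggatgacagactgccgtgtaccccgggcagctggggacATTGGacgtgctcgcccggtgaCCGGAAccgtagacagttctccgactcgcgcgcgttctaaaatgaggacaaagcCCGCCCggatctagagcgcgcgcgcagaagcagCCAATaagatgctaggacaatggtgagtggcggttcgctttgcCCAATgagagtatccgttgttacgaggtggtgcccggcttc
Sf3b3, chr8:110846813-110847023, minus strand: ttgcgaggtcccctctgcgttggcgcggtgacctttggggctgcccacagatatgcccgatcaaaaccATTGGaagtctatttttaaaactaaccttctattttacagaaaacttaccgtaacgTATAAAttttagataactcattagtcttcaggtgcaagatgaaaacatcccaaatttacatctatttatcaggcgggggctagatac
Srsf3, chr17:29032410-29032627, plus strand: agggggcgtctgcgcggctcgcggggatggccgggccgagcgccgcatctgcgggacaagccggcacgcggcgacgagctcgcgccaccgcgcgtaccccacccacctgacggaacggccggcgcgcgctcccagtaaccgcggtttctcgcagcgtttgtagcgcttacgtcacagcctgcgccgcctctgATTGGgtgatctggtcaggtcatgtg
The Hnrnpab window held 3 CCAAT boxes, the nearest ending 37 bases before the start, with a GGGCGG at 112 and a CCGGAA at 166 bases. In the printed stretches Srsf3 had 1 CCAAT box, 54 bases before the start, and Sf3b3 had 1 CCAAT box at 148 and a TATAAA at 91 bases. CG dinucleotides numbered 34 in the 218 bases of Srsf3, 23 in the 250 bases of Hnrnpab and 8 in the 211 bases of Sf3b3. Over the whole 250-base windows, CCGGAA was found in 16 of the 37 genes with an entry (43.2%), against 13.6% of all genes with an entry. GGGCGG was found in 27 of them (73.0%) against 35.4% of all genes, and CCAAT in 20 (54.1%) against 37.5%. CACGTG (3 genes, 8.11% against 6.86%) and TATAAA (4 genes, 10.8% against 14.3%) were about as frequent as among all genes. The median window of these genes held 22 CG dinucleotides and the median of all windows 6. All genes with an entry were counted, expressed in kidney or not. A gene counted if any of its windows held the motif (51 windows for the 37 genes, 32851 for 27025 genes). The shares were not adjusted for CG content or number of windows, and a link of a motif to the rises was not tested. Of the 7 genes called higher in both sets, 6 had an entry, of which 5 held a CCAAT box, 4 held GGGCGG, 3 held CCGGAA, 2 held TATAAA and 0 held CACGTG.

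Compared per kilobase of the median coding transcript, the levels of the 44 genes in control kidneys spanned 3 orders of magnitude. Hnrnpk (1421 ± 177 CPM per kilobase, SD, n = 4), which binds C-rich RNA, and Hnrnph1 (1161 ± 172), which binds runs of G, were the highest. These were also the top 2 genes when the total exon length was used, while the places of other genes moved by up to 14. Hnrnpa2b1, U2af1 and Srsf1 held places 3 to 5 under both lengths. The lowest were Hnrnpa0 (1.33 ± 0.775), Srsf2 (1.41 ± 0.756), Sf3b4 (2.98 ± 0.962) and Esrp1 (3.44 ± 1.31). Hnrnpa0 and Srsf2 overlapped in their control values. Genes on the opposite strand (Mettl23 and Mfsd11) overlap 25.3% of the exon bases of Srsf2, and 36.9% of the 100-base stretches of Sf3b4 recur in a pseudogene.

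**Figure D1:**
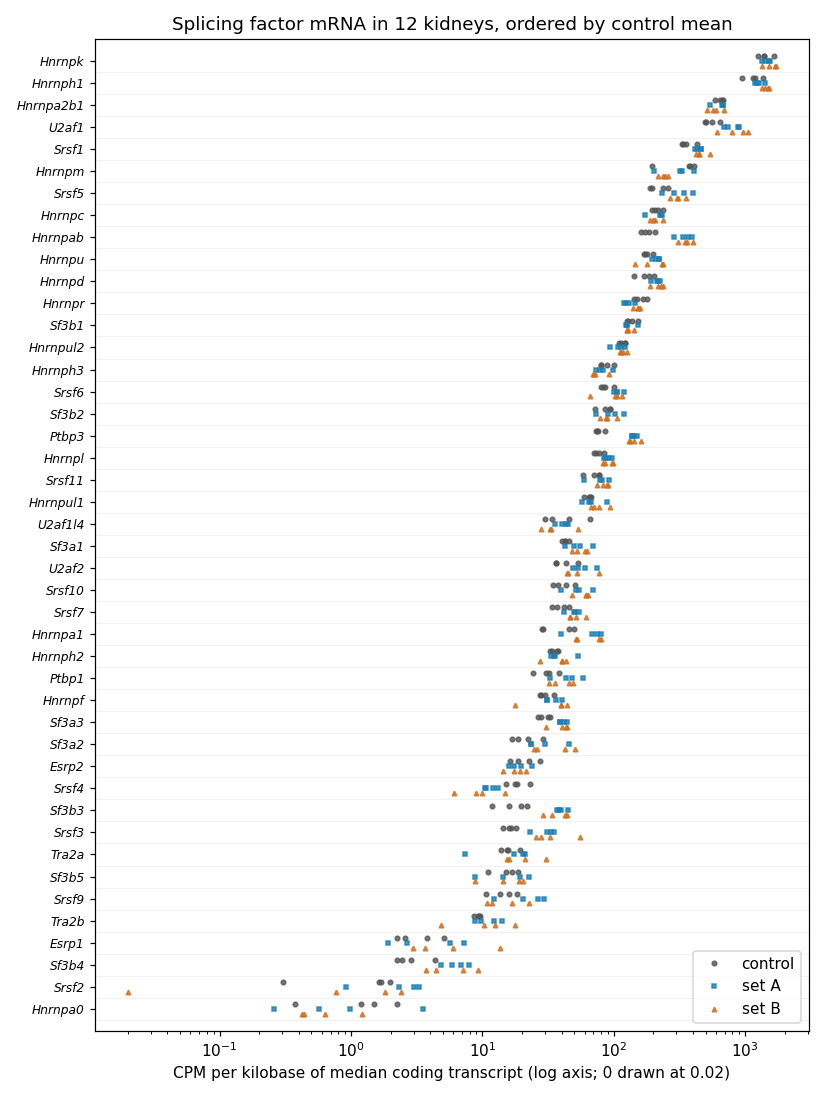
Level of each of the 44 genes in the 12 kidneys, in CPM per kilobase of median coding transcript on a log axis, 1 point per kidney. Hnrnpk and Hnrnph1 lie at the top, Srsf2 and Hnrnpa0 at the bottom, and Hnrnpab, Ptbp3, Sf3b3 and Srsf3 are among the genes whose ischemic points lie to the right of the control points.

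The first comparison asked which of these mRNAs differed between kidneys 24 h after ischemia and control kidneys. Of the 44 genes, 8 passed an adjusted p of 0.05 in set A (7 higher and 1 lower, 18.2%) by the quasi-likelihood test of edgeR, adjusted after Benjamini and Hochberg over all 11664 genes tested. In set B, 8 passed as well (7 higher and 1 lower, 18.2%). Over all genes tested the shares were 22.3% in set A (10.5% higher and 11.7% lower) and 22.8% in set B (10.9% higher and 11.9% lower). By edgeR the share of splicing factor genes called was thus near the background, with more of the calls higher than lower. The 7 genes called higher were the same in both sets: Srsf3, Srsf5, Hnrnpa1, Hnrnpab, Ptbp3, Sf3b3 and U2af1. Both sets were compared with the same 4 control kidneys, so their values stand side by side and are not independent. The median log2 fold change of the 44 genes was 0.23 for set A and 0.24 for set B, against -0.02 over all genes in each set, and the median absolute change was 0.26 and 0.29 against 0.60 and 0.62. The counts fell to 5 in set A without control 1, control 2, control 4 or set A kidney 2, and to 5 in set B without set B kidney 2. DESeq2 called 10 for set A (22.7%) and 15 for set B (34.1%), against 25.2% and 25.8% of all genes it tested. Its calls were 9 higher and 1 lower for set A, where 12.7% of all genes were higher and 12.5% lower, and 14 higher and 1 lower for set B, where 13.1% were higher and 12.7% lower.

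Summed over the 44 genes, splicing factor counts made up 1.30% to 1.54% of each control library, 1.61% to 1.62% of each set A library and 1.55% to 1.76% of each set B library. The sums of the 2 PTB genes were 212 ± 14.9 CPM in controls (SD, n = 4), 372 ± 13.7 CPM for set A and 365 ± 17.96 CPM for set B. The sums of the 17 hnRNPs, 9745 ± 696 CPM in controls, 10590.0 ± 173 CPM for set A and 10881 ± 758 CPM for set B, lay closer together. Some other transcripts in the same libraries moved far more. The 8 proximal tubule markers were all lower in both sets, their sum going from 7820 to 8828 CPM in controls to 1238 to 2063 CPM for set A and 710 to 2112 CPM for set B. All 4 injured tubule markers were higher (sum 0 to 9.19 CPM in controls, 152 to 209 CPM for set A and 131 to 164 CPM for set B), as were 4 of 6 general kidney epithelium markers, of which 1 was lower in set A. Of the 6 cycling cell markers, 3 could be tested, of which 2 were higher for set A and 3 for set B, with a sum of 9.38 to 16.2 CPM in controls, 34.4 to 48.7 CPM for set A and 46.3 to 74.6 CPM for set B. Of the 9 leukocyte markers 5 could be tested, 2 were lower in each set and S100a8 had no count. By contrast, 2 of 3 tested fibroblast markers were higher in each set. The sum of 3 thick ascending limb markers was 1598 to 1682 CPM in controls, 286 to 387 CPM for set A and 270 to 796 CPM for set B. In set A and set B, 1 and 2 of 3 distal tubule and 2 and 1 of 5 collecting duct markers were lower. In each set 1 of 3 podocyte markers was higher, and no endothelium marker was called. The part of these markers in the splicing factor values was not tested, and in bulk RNA fewer cells of a type and less RNA per cell cannot be told apart.

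**Figure D2:**
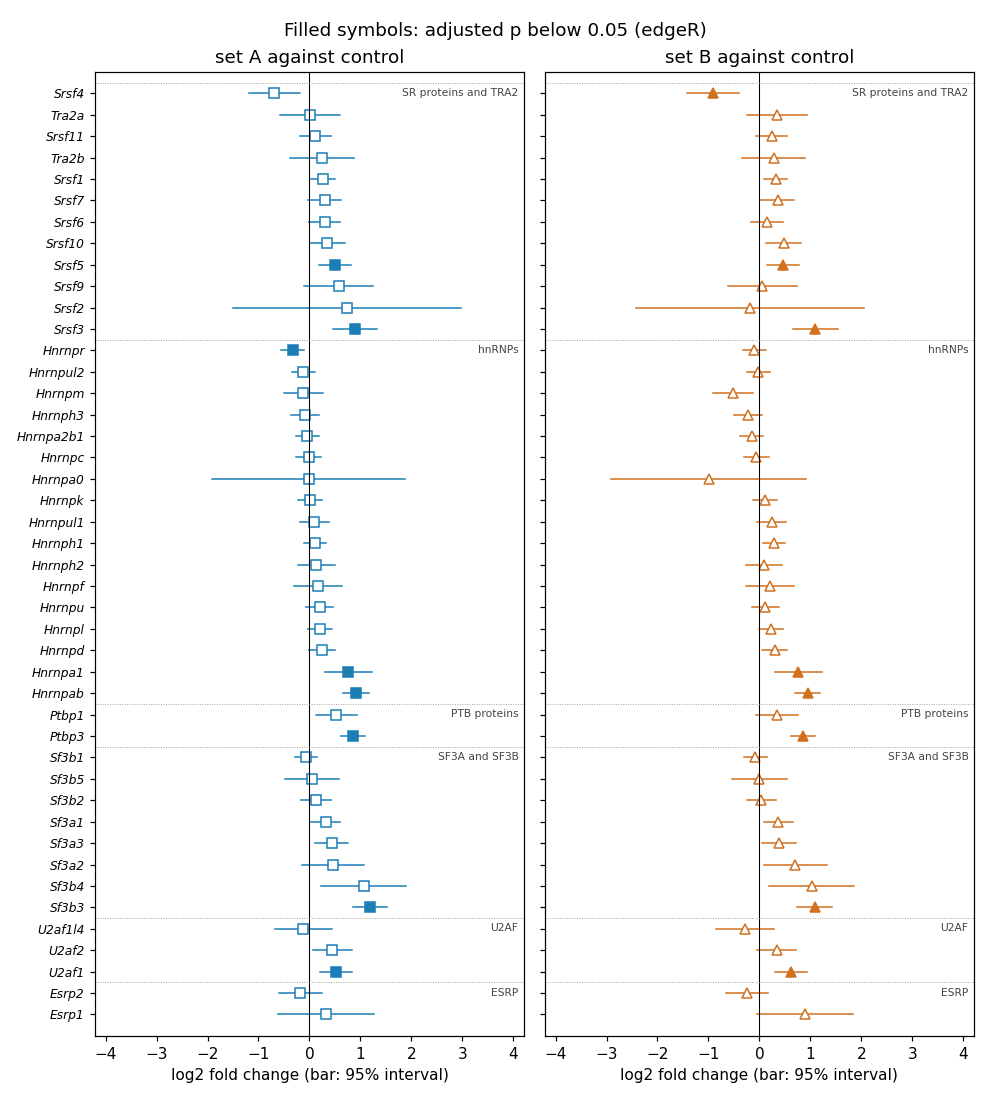
log2 fold change of each of the 44 genes against control in set A (left, squares) and set B (right, triangles), by family. Bars show an approximate 95% interval from the standard error of the edgeR fit, and filled symbols an adjusted p below 0.05. The 7 filled symbols right of 0 in each panel are the same genes, and the single filled symbol left of 0 is Hnrnpr for set A and Srsf4 for set B.

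Among the 12 SR and TRA2 genes, Srsf3 and Srsf5 rose in both sets, Srsf4 fell in set B, and the other 9 did not pass the test. Srsf3 (chr17:29032628-29043373, plus strand, GENCODE vM21 on GRCm38) encodes a small SR protein that also takes part in mRNA export. Its control kidneys held 47.0, 43.5, 37.6 and 41.7 CPM. Set A held 81.7, 59.8, 92.2 and 86.5 CPM, and set B held 72.7, 85.8, 66.5 and 146 CPM. Every ischemic kidney lay above every control kidney (exact permutation test, two-sided, p = 0.0286 in each set, the smallest that 4 against 4 allows). By edgeR the log2 fold change was 0.89 ± 0.22 (SE) in set A, a 1.86-fold rise with an adjusted p of 0.00518, and 1.10 ± 0.22 in set B, a 2.14-fold rise with an adjusted p of 0.000921. Set B kidney 4 stood above the other set B kidneys. Of the 100-base stretches of the Srsf3 transcripts, 20.7% also occur in 3 other genes, 2 of them pseudogenes.

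Srsf5 (chr12:80945504-80950507, plus strand) encodes an SR protein first found in regenerating liver. It held 282, 295, 388 and 353 CPM in controls, 429, 351, 517 and 599 CPM for set A and 401, 458, 457 and 535 CPM for set B. Set B did not overlap the controls, whereas set A kidney 2 lay below the highest control. By edgeR its log2 fold change was 0.50 ± 0.16 in set A (adjusted p = 0.0289) and 0.46 ± 0.16 in set B (adjusted p = 0.0431). The set A call was lost without control 1, control 2, set A kidney 3 or set A kidney 4 (edgeR adjusted p 0.0729 to 0.154). In set B it was lost without control 1, 2 or 4, set A kidney 3 or set B kidney 2, 3 or 4 (edgeR adjusted p 0.0546 to 0.141).

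Srsf4 (chr4:131873617-131901706, plus strand), a large SR protein gene, held 51.8, 33.9, 39.7 and 41.4 CPM in controls, 27.1, 29.7, 24.2 and 23.7 CPM for set A and 20.1, 22.5, 33.4 and 13.7 CPM for set B. No ischemic kidney reached the lowest control (exact permutation p = 0.0286 in each set), though set B kidney 3 came close to it. The log2 fold change by edgeR was -0.91 ± 0.26 in set B, a 1.88-fold fall with an adjusted p of 0.0133, which became 0.0514 without control 1. In set A it was -0.69 ± 0.26 with an adjusted p of 0.0597, and it passed by edgeR without set B kidney 3 (0.0363) or 4 (0.0260) and with only set A and controls in the fit (0.0226). The sets did not differ in Srsf4 beyond their spread (B against A -0.22, 95% interval -0.72 to 0.28). Gm12992 on the opposite strand overlaps 43.0% of the exon bases of Srsf4, and the strand setting of the counting is not given in the sources used here.

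Counts of Srsf3 and Srsf4 in controls were nearly equal. Per kidney, the ratio of Srsf3 to Srsf4 counts, not adjusted for length, was 0.908, 1.29, 0.947 and 1.01 in controls, 3.01, 2.01, 3.82 and 3.65 for set A and 3.62, 3.82, 1.99 and 10.6 for set B. No ischemic kidney had a ratio as low as any control. This ratio is independent of how a library was scaled.

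Srsf1, which promotes exon inclusion at weak sites and had the highest counts of its family, held 975, 996, 1270.1 and 1037 CPM in controls. Its levels were 1275, 1354, 1231 and 1367 CPM for set A and 1577, 1304, 1241 and 1308 CPM for set B. Control 3 lay within the range of both ischemic sets. The log2 fold change by edgeR was 0.26 ± 0.12 in set A (adjusted p = 0.128) and 0.32 ± 0.12 in set B (adjusted p = 0.0571). Without control 3 the gene passed by edgeR in both sets (adjusted p 0.0431 and 0.0184), and in set B it passed too by edgeR without set B kidney 4 (0.0481), with RLE factors (relative log expression, another scaling of the libraries), with library totals and with a filter of 1 CPM, and by DESeq2 (0.0145). Srsf2, Srsf6, Srsf7, Srsf9, Srsf10, Srsf11, Tra2a and Tra2b had log2 fold changes between 0.02 and 0.74 for set A and between -0.18 and 0.47 for set B, none past the test. Of these Srsf10 came nearest, with 0.47 ± 0.17 in set B (edgeR adjusted p = 0.0566). It passed in set B in 9 of 19 alternatives: RLE factors, library totals, the filter of 1 CPM, the replicate block, DESeq2, and without control 3, set A kidney 1 or 2 or set B kidney 4. In set A it passed without set A kidney 1. For Srsf2, which ranged from 0 to 5.34 CPM, the 95% interval ran from -1.51 to 2.98 for set A and from -2.42 to 2.05 for set B, so neither a rise nor a fall could be told from no change. Its set B kidney 4 had no count, which allows a level of up to 0.195 CPM.

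Of the 17 hnRNPs, Hnrnpa1 and Hnrnpab rose in both sets, Hnrnpr fell in set A, and 14 did not pass the test in either set. Hnrnpab (chr11:51600100-51606847, minus strand) encodes an RNA- and DNA-binding protein of the nucleus and cytoplasm. Its levels were 346, 411, 372 and 327 CPM in controls, 676, 789, 744 and 581 CPM for set A and 805, 703, 729 and 619 CPM for set B. The lowest ischemic kidney stood well above the highest control (exact permutation p = 0.0286 in each set). By edgeR its log2 fold change was 0.91 ± 0.13 in set A, a 1.88-fold rise with an adjusted p of 1.73e-05, and 0.95 ± 0.13 in set B, a 1.93-fold rise with an adjusted p of 1.14e-05. Phykpl on the opposite strand covers 29.1% of its exon bases.

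Hnrnpa1 (chr15:103240432-103246692, plus strand) encodes a repressor of splice sites that opposes SR proteins. Controls held 79.5, 50.2, 85.8 and 49.6 CPM, set A 119.5, 139, 129 and 68.9 CPM, and set B 139.6, 133, 91.6 and 89.7 CPM. Set B lay above the controls in every kidney, whereas set A kidney 4 lay below a pair of controls. By edgeR the log2 fold change was 0.76 ± 0.24 in each set, a 1.69-fold rise, with an adjusted p of 0.0244 for set A and 0.0239 for set B. The call in set A was lost without control 2, control 4 or set A kidney 2 or 3 (edgeR adjusted p 0.0743 to 0.0886), and that in set B without control 2, control 4 or set B kidney 1 or 2 (0.0880 to 0.0942). Stretches of Hnrnpa1 transcripts recur in 11 pseudogenes, which share 42.2% of its 100-base windows.

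Hnrnpr (chr4:136310942-136359447, plus strand) encodes an RNA-binding protein close in structure to Syncrip. Its control levels were 424, 364, 455 and 384 CPM, against 331, 305, 367 and 313 CPM for set A and 389, 391, 356 and 405 CPM for set B. Set A kidney 3 lay just above the lowest control, and set B lay within the span of the controls apart from kidney 3. The log2 fold change by edgeR was -0.33 ± 0.11 in set A (adjusted p = 0.0448) and -0.10 ± 0.11 in set B (adjusted p = 0.630). The set A call held in 7 of 19 alternatives and was lost by edgeR without control 1, 3 or 4 and without set A kidney 1, 2 or 4 (adjusted p 0.0702 to 0.135). It was lost as well with RLE factors, library totals, no low-count filter, the filter of 1 CPM, the replicate block and the 2 groups alone. Between the sets the difference was 0.23 with an adjusted p of 0.994 by edgeR. Per kidney, the ratio of Hnrnpab to Hnrnpr counts was 0.815 to 1.13 in controls, 1.86 to 2.58 for set A and 1.53 to 2.07 for set B, with no overlap between controls and either set.

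Hnrnph1, the hnRNP with the highest counts, held 2634, 2119, 3052 and 2532 CPM in controls, 2726, 2621, 2850.3 and 3122 CPM for set A and 3152, 3338, 3009 and 3361 CPM for set B. Control 3 lay above the lowest kidney of each set. Its log2 fold change by edgeR was 0.11 ± 0.11 in set A (adjusted p = 0.615) and 0.29 ± 0.11 in set B (adjusted p = 0.0671). In set B it passed by edgeR without control 3 (adjusted p = 0.0201), with RLE factors, with library totals and with a filter of 1 CPM, and by DESeq2 (0.0262). Hnrnpm, a splicing regulator that binds GU-rich RNA, had a log2 fold change of -0.52 ± 0.20 in set B (edgeR adjusted p = 0.0647) and -0.12 ± 0.20 in set A. Its control 3, at 344 CPM, lay far below the other controls at 652 to 708 CPM. March2 on the same strand overlaps 14.7% of the exon bases of Hnrnpm and shares 27.9% of its 100-base stretches.

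Hnrnpa0, which binds AU-rich elements, had the largest difference between the ischemic sets. It held 3.19, 6.03, 1.01 and 3.98 CPM in controls, 9.46, 0.69, 1.52 and 2.62 CPM for set A and 1.14, 1.18, 3.26 and 1.69 CPM for set B. The 3 groups overlapped throughout. By edgeR the difference of B against A was -0.98 ± 0.98 on the log2 scale (unadjusted p = 0.328), and without set A kidney 1 it was 0.15. The remaining hnRNPs were Hnrnpa2b1, Hnrnpc, Hnrnpd, Hnrnpf, Hnrnph2, Hnrnph3, Hnrnpk, Hnrnpl, Hnrnpu, Hnrnpul1 and Hnrnpul2, whose log2 fold changes lay between -0.12 and 0.24 for set A and between -0.22 and 0.30 for set B. Of these Hnrnpd passed in set B by DESeq2 and by edgeR without set B kidney 4. For Hnrnpf, 56.3% of 100-base stretches recur in 10 other genes, 6 of them pseudogenes. Hnrnpc and Hnrnpk, which bind U-rich and C-rich RNA, differed from controls by at most 0.11 in log2 in either set. Their 95% intervals lay within -0.30 to 0.35.

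**Figure D3:**
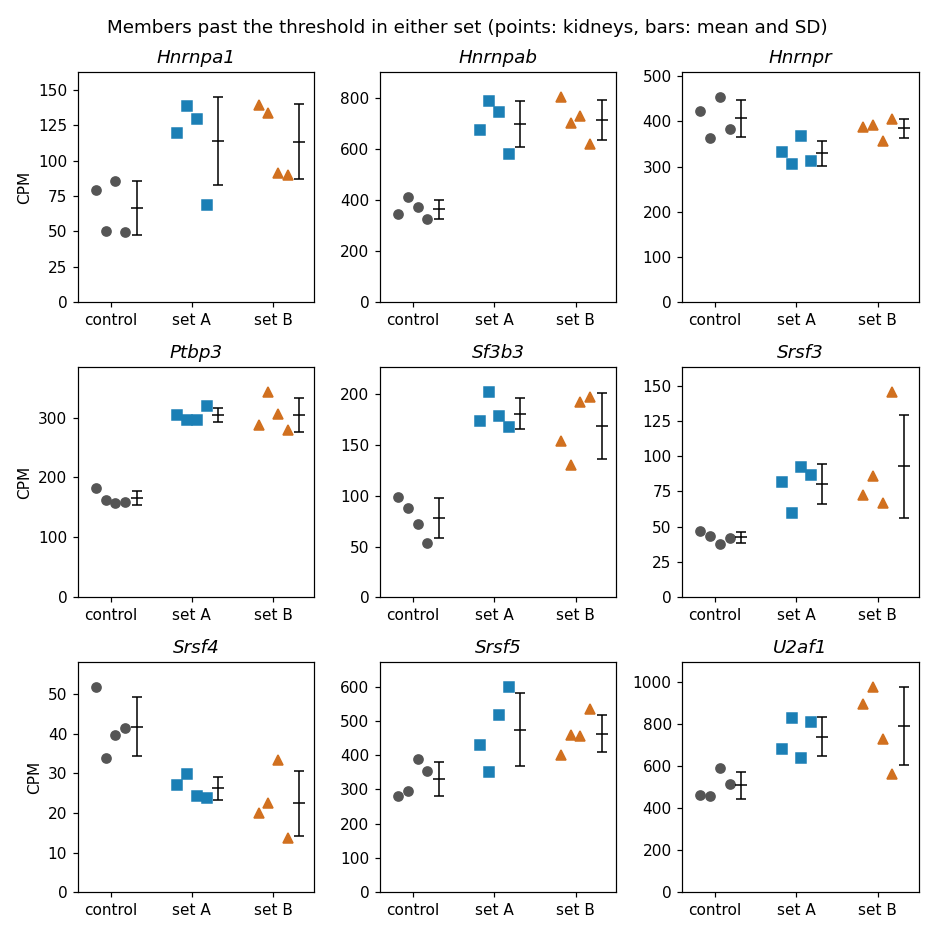
CPM of the 9 genes past the threshold in set A or set B, 1 point per kidney, with the mean and SD of 4 kidneys beside each group and each axis starting at 0. Hnrnpab, Ptbp3, Sf3b3 and Srsf3 have every ischemic kidney above every control, and Srsf4 has every ischemic kidney below.

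Ptbp3 rose in both sets and Ptbp1 did not pass the test. Ptbp3 (chr4:59471868-59549364, minus strand) encodes a paralog of Ptbp1, and both proteins repress exons beside pyrimidine tracts. Its levels were 183, 163, 157 and 159.5 CPM in controls, 304, 295, 295 and 319.8 CPM for set A and 287, 343, 307 and 280.1 CPM for set B. No kidney of either set came near the control range (exact permutation p = 0.0286 in each set). By edgeR the log2 fold change was 0.85 ± 0.12 in set A, a 1.81-fold rise with an adjusted p of 1.59e-05, and 0.86 ± 0.12 in set B, a 1.81-fold rise with an adjusted p of 1.56e-05.

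Ptbp1 held 45.6, 47.7, 35.9 and 56.8 CPM in controls, 87.5, 72.1, 65.1 and 48.8 CPM for set A and 67.5, 47.9, 53.3 and 72.6 CPM for set B. Controls overlapped with set A kidney 4 and with set B kidneys 2 and 3. The log2 fold change by edgeR was 0.53 ± 0.21 in set A (adjusted p = 0.0797, and 0.0387 without set A kidney 4) and 0.35 ± 0.21 in set B (adjusted p = 0.276). Per kidney the ratio of Ptbp3 to Ptbp1 counts was 2.81 to 4.37 in controls, 3.48 to 6.56 for set A and 3.86 to 7.17 for set B, and the groups overlapped. On the opposite strand of Ptbp1, other genes cover 20.7% of its exon bases.

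Of the 8 SF3A and SF3B genes only Sf3b3 passed the edgeR test, and it did so in both sets. Sf3b3 (chr8:110810239-110846787, minus strand) encodes a large scaffold subunit of SF3B, and the protein is also found in the SAGA coactivator. It held 98.5, 88.4, 72.2 and 53.7 CPM in controls, 174, 203, 178 and 168 CPM for set A and 154, 130.0, 193 and 198 CPM for set B. Every ischemic kidney stood above every control (exact permutation p = 0.0286 in each set). By edgeR its log2 fold change was 1.19 ± 0.17 in set A, a 2.28-fold rise with an adjusted p of 3.48e-05, and 1.09 ± 0.17 in set B, a 2.12-fold rise with an adjusted p of 9.61e-05. Shared stretches made up 0.068% of its transcripts.

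Sf3b1, the subunit that contacts the branch point and the one with the highest counts of its family, held 853, 774, 948 and 798 CPM in controls, 777, 771, 785 and 944 CPM for set A and 783, 883, 778 and 792 CPM for set B. The groups overlapped fully. The log2 fold change by edgeR was -0.07 ± 0.11 for set A and -0.08 ± 0.11 for set B, with 95% intervals of -0.29 to 0.16 and -0.31 to 0.14. The ratio of Sf3b3 to Sf3b1 counts was 0.067 to 0.115 in controls, 0.178 to 0.263 for set A and 0.147 to 0.250 for set B. Every ischemic ratio lay above every control ratio.

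Sf3b4, at 4.32 to 8.38 CPM in controls, had log2 fold changes close in size to those of Sf3b3, 1.06 ± 0.42 for set A and 1.02 ± 0.42 for set B. It did not pass (edgeR adjusted p = 0.0822 and 0.0938), although DESeq2 called it in both sets. Sf3a1, Sf3a2, Sf3a3, Sf3b2 and Sf3b5 had log2 fold changes between 0.05 and 0.46 for set A and between -0.01 and 0.70 for set B. DESeq2 called Sf3a3 in both sets and Sf3a1 in set B. By edgeR Sf3a3 passed in set A with the filter of 1 CPM and with the 2 groups alone, and Sf3a1 passed in set B without set A kidney 1 or set B kidney 4.

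U2af1 rose in both sets, while U2af2 and U2af1l4 did not pass. U2af1 (chr17:31647081-31658892, minus strand) encodes the small U2AF subunit, which reads the AG at the end of the intron. It held 464, 459, 592 and 513 CPM in controls, 681, 829, 638 and 808 CPM for set A and 896, 975, 728 and 561 CPM for set B. Set A lay above the controls, whereas set B kidney 4 lay below the highest control. By edgeR the log2 fold change was 0.52 ± 0.16 in set A (adjusted p = 0.0249) and 0.62 ± 0.16 in set B (adjusted p = 0.00781). The set A call was lost without control 1, 2 or 4 or set A kidney 2 or 4 (edgeR adjusted p 0.0511 to 0.0893), and the set B call without set B kidney 2 (0.0522). Among 100-base stretches of U2af1, 49.5% recur in 3 pseudogenes.

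U2af2, the large subunit that binds the pyrimidine tract, had log2 fold changes of 0.45 ± 0.20 in set A (edgeR adjusted p = 0.116) and 0.34 ± 0.20 in set B (adjusted p = 0.255). The ratio of U2af1 to U2af2 counts overlapped between groups, at 4.58 to 7.80 in controls, 4.41 to 7.97 for set A and 3.45 to 10.4 for set B. U2af1l4 shared 97.1% of its windows with an overlapping gene and had log2 fold changes of -0.12 and -0.28.

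Esrp1 and Esrp2 did not pass the test in either set. Esrp1 held 9.38, 18.6, 8.17 and 13.7 CPM in controls, 26.5, 6.99, 9.64 and 20.7 CPM for set A and 10.8, 13.2, 21.7 and 49.7 CPM for set B. Esrp2 held 43.6, 50.01, 60.4 and 73.5 CPM in controls, 63.4, 42.4, 46.2 and 53.1 CPM for set A and 52.1, 47.0, 38.7 and 57.3 CPM for set B. Both genes overlapped across the 3 groups, and Esrp1 spread widely within each. By edgeR the log2 fold change of Esrp1 was 0.33 ± 0.48 for set A and 0.89 ± 0.48 for set B (adjusted p = 0.747 and 0.221), with a 95% interval of -0.06 to 1.84 in set B. For Esrp2 it was -0.18 ± 0.21 and -0.25 ± 0.21 (adjusted p = 0.678 and 0.493), which leaves intervals of -0.59 to 0.24 and -0.66 to 0.17. Leaving out a kidney moved the Esrp1 value between 0.0041 and 0.60 for set A and between 0.26 and 1.13 for set B, the lowest of each without set A kidney 1 and without set B kidney 4.

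The second comparison asked whether these mRNAs differed between the ischemic sets. By edgeR, no splicing factor gene passed in set B against set A, where 0.00857% of all genes tested (1 gene) passed. None of the 44 had an unadjusted p below 0.05, against 587 of all 11664 genes tested. DESeq2 also called 0 of them, and 0.331% of all genes it tested. The smallest unadjusted p by edgeR was 0.0544, for Hnrnpm, with an adjusted p of 0.990. For 40 of the 44 genes the approximate 95% interval of the difference lay within -1 to 1 in log2, the exceptions being Esrp1, Hnrnpa0, Srsf2 and Srsf9. The median SD of log2 CPM over the 44 genes was 0.18 in controls, 0.23 for set A and 0.24 for set B.

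The wider splicing machinery was read from 168 other genes in 7 lists, of which 157 could be tested. In set A 30 passed (23 higher and 7 lower, 19.1%) and in set B 31 passed (25 higher and 6 lower, 19.7%), by edgeR, close to the 22.3% and 22.8% of all genes. Their median log2 fold change was 0.12 for set A and 0.15 for set B. Between the sets none passed by edgeR or DESeq2. By edgeR 6 of the 157 had an unadjusted p below 0.05, against 587 of all 11664 genes tested.

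Of 30 tested snRNP and tri-snRNP genes, 7 rose and 1 fell in set A (26.7% called), and 5 rose and 1 fell in set B (20%). Over all genes tested the shares called were 22.3% and 22.8%. Prpf31, needed to assemble the tri-snRNP, went from 35.8 ± 8.44 CPM (SD, n = 4) in controls to 80.2 ± 9.43 CPM for set A and 74.2 ± 7.04 CPM for set B (log2 fold change 1.13 and 1.02 by edgeR). Snrpa1, a protein of the U2 particle, rose by 1.17 and 0.89 and the tri-snRNP protein Sart1 by 0.97 and 1.04 in log2. The helicase gene Snrnp200 fell by 0.38 and 0.35.

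Among 23 tested SR-related and nuclear speckle genes, 5 rose for set A (21.7%) and 7 for set B (30.4%), and none fell. Over all genes tested, 10.5% were higher and 11.7% lower in set A, and 10.9% and 11.9% in set B. At these shares a list of 23 genes would hold only a few falls. Rbm25, an activator of splice sites, stood at 847 ± 78.4 CPM in controls, 1676 ± 433 CPM for set A and 1906 ± 293 CPM for set B, a rise of 0.96 and 1.15 in log2 (edgeR adjusted p = 7.99e-05 and 1.18e-05). The speckle gene Pnn rose by 0.46 and 0.63, and Luc7l, a partner of the U1 particle, by 0.49 and 0.47. Of 10 tested kinases and import receptors of SR proteins, 1 passed in each set (10%). This was Clk2, a kinase that phosphorylates the serine- and arginine-rich domain, which rose by 0.48 and 0.57 in log2.

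Of 43 other RNA-binding regulators, 5 rose and 3 fell in set A (18.6% called), and 9 rose and 2 fell in set B (25.6%). Among all genes tested 22.3% and 22.8% were called. Rbpms, an RNA-binding splicing regulator best known from smooth muscle, had the smallest adjusted p by edgeR in these lists. It went from 529 ± 42.6 CPM in controls to 1462 ± 169 CPM for set A and 1488 ± 295 CPM for set B, a rise of 1.44 and 1.47 in log2 (adjusted p = 2.06e-07 and 1.70e-07). Rbfox2, which binds GCAUG, rose by 0.98 and 0.78 in log2. Rbm47, an RNA-binding protein of epithelia, fell by 0.68 and 0.62, and the poly(C)-binding gene Pcbp2, at 3165 ± 109 CPM in controls, fell by 0.39 and 0.41.

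Among 26 Prpf19 complex, helicase and step factor genes, 3 rose in each set and Cdc5l fell in set A alone, a difference between sets that did not pass (edgeR adjusted p = 0.930). Ddx39b, a helicase of spliceosome assembly and mRNA export, rose by 0.62 and 0.64, and Puf60, related to U2AF, by 0.39 and 0.37. In the list of 16 exon junction, cap binding and export genes the export factor gene Thoc7 fell by 1.07 and 1.32 in log2 and the cap-binding gene Ncbp1 by 0.89 and 0.97, while 2 rose in set A, Alyref and Rbm8a, and none in set B by edgeR. Of 9 minor spliceosome genes, Zrsr1 passed in set B, where it fell by 2.36 in log2 (edgeR adjusted p = 0.00210), and none passed in set A, where Zrsr1 had a log2 fold change of -1.02 (adjusted p = 0.165). In both sets every Zrsr1 value lay below every control, and the difference between the sets did not pass (edgeR adjusted p = 0.930). Cdc5l, Alyref, Rbm8a and Zrsr1 were named after their values were seen.

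**Figure D4:**
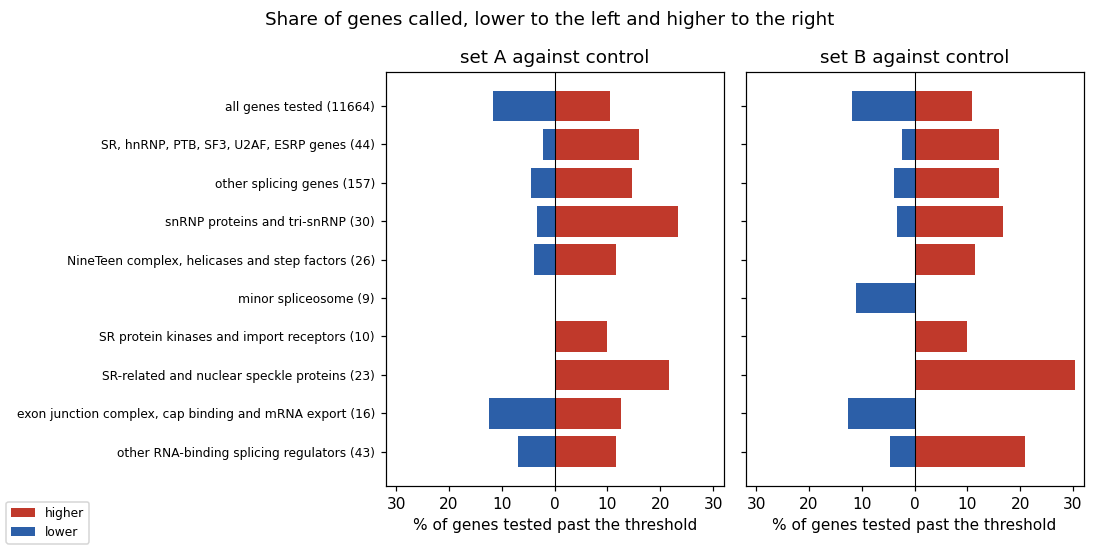
Percentage of tested genes past the edgeR threshold in set A (left) and set B (right), higher drawn to the right and lower to the left of 0, for all genes, the 44 splicing factor genes and the lists of other splicing genes, with the number tested in brackets. Of the 44 genes 7 are higher and 1 is lower in each set. The 23 SR-related and speckle genes show none lower, where 11.7% and 11.9% of all genes are lower.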

How the data were processed

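Stranded mRNA libraries of 12 mouse kidneys (4 per group) were sequenced as 100-base single reads. Raw counts per gene were deposited by the authors, not normalized, from reads mapped to mm10 with STAR and counted with HTSeq, after quality control in FastQC per the submitters' processing notes. Versions, annotation release and the strand setting of the counting are not given in the sources used here, and reads shared with pseudogenes or overlapping genes may have been dropped or misassigned. Counts of 23420 genes were fitted with edgeR 4.0.16 (R 4.3.3) with filterByExpr (minimum count 10, minimum total 15), which kept 11664 genes, with TMM factors (0.968 to 1.03) and a quasi-likelihood fit of all 12 kidneys with a coefficient per group. The study's methods name edgeR, a filter on low expression and a quasi-likelihood F-test, without filter settings or which kidneys entered a fit. The common biological coefficient of variation was 0.762. Tests were two-sided with Benjamini-Hochberg adjustment and a threshold of 0.05, and standard errors came from the same fit. CPM used the column sums. Single genes were also compared by an exact permutation test of mean CPM, 4 kidneys against 4. Its p is printed above only where full separation from the controls fixes it at 0.0286, so it adds nothing to that separation. By this test p was 0.0857 for Srsf5 and Hnrnpa1 in set A. It was 0.0571 for Hnrnpr in set A and for U2af1 in set B. Srsf6, Sf3a3 and Sf3b4 in set A and Srsf7 and Sf3a1 in set B reached 0.0286 without an edgeR call. Both tools were run on simulated counts with known changes. Both missed many of the changed genes, more of the smaller changes than of the larger ones, so a gene that did not pass may still have changed. edgeR recovered 26.9% of genes changed by 1 in log2 and 50.6% of those changed by 2, and DESeq2 35.2% and 62.4%. Neither called a changed gene in the wrong direction. DESeq2 called 69 genes that had not been changed, and edgeR 1, so calls made by DESeq2 alone are less certain. Depth was 15367342 to 44793350 counts per kidney.

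Every gene of the set was named. Values per kidney were given for genes called in either set, for the gene with the highest mean CPM of each family, for Esrp1, Esrp2, Ptbp1 and Ptbp3, and for the largest difference between the sets. From each list of other splicing genes, up to 3 rises and 3 falls called in both sets were named, except for a gene that is not reported here. The genes and lists were chosen with earlier results of these data known. Alternatives were RLE factors, library totals, no low-count filter, a 1 CPM minimum in 4 kidneys, DESeq2 1.42.0, the 2 groups alone, the replicate number as a block and leaving out each kidney. A total exon length for levels per kilobase was chosen after seeing the data. Gene positions and shared 100-base stretches came from GENCODE vM21 (GRCm38) and promoters from RefSeq (GRCm38.p6), with Python 3.11.15, pandas 2.3.3, NumPy 2.4.6 and matplotlib 3.10.9.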

Additional observations from a re-analysis of the deposited data

Results flagged for a closer look

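In 8 of 132 groups of 4 kidneys, a kidney lay apart from the others by Dixon's test at 95%, which sets the gap to the nearest neighbour against the range of the group. Chance alone flags about 1 in 20 groups. Set A kidney 4 was the lowest of its set for Hnrnpa2b1 (894 CPM, the next at 1099 CPM) and for Hnrnpc (293 CPM, the next at 381 CPM), and the highest for Sf3b1 (944 CPM, the next at 785 CPM). Sf3b1 was also highest in set B kidney 2, at 883 CPM against 792 CPM in the next. Hnrnph2 stood at 126 CPM in set A kidney 2, with the next at 83.8 CPM. For Hnrnph3 the highest value of set B was 200.4 CPM in kidney 1, with the next at 155 CPM. Hnrnpf was lowest in set B kidney 4, at 26.7 CPM, with the next at 59.8 CPM. Hnrnpm was lowest in control 3, at 344 CPM, with the next at 652 CPM. None of these 7 genes passed the edgeR test with all kidneys or the DESeq2 test in either set, but Hnrnpm passed by edgeR in set B without control 3, without set A kidney 4 and with no low-count filter.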

How the results depend on the processing

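Srsf3, Hnrnpab, Ptbp3 and Sf3b3 passed in both sets under all 19 alternatives. The number of the 44 genes called by edgeR in set A (8) was 7 to 10 under other settings and 5 to 9 when a kidney was left out, with 5 without control 1, control 2, control 4 or set A kidney 2. In set B (8) it was 8 to 15, the 15 by DESeq2, which added Hnrnpd, Hnrnph1, Sf3a1, Sf3a3, Sf3b4, Srsf1 and Srsf10, and 5 to 12 when a kidney was left out, with 5 without set B kidney 2. The cause was not tested. For the other splicing genes the count was 28 to 39 (set A) or 28 to 40 (set B), and 23 to 37 or 22 to 32 without a kidney. Between the sets it was 0 under every alternative. Hnrnpr in set A passed in 7 of 19 alternatives, Hnrnpa1 in 15 of 19 in each set, Srsf5 in 15 and 12, U2af1 in 14 and 18, and Srsf4 in set B in 18. Hnrnpa0, at -0.01 in set A, changed sign with RLE factors (0.0152), library totals (0.0090), the filter of 1 CPM (0.0221), DESeq2 (0.0155) and the 2 groups alone (0.0208), and ran from -1.12 to 0.38 when a kidney was left out. Its difference between the sets ran from -1.42 to 0.15, the latter without set A kidney 1.

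The replicate numbers were no evidence of pairing: same-numbered kidneys deviated with correlations of -0.035 to 0.0024 (set A and controls), -0.056 to 0.011 (set B and controls) and 0.0017 to 0.045 (the sets). With the number as a block, 7 of the 44 genes were called in set A, without Hnrnpr, and 9 in set B, with Srsf10, and the other splicing genes called were 30 and 28.

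Limits are the 4 kidneys per group, the contradiction in the labels, set B's lower depth, and the wide intervals of the lowest genes (Hnrnpa0, Srsf2). Lengths moved the place of genes in the order of levels by up to 14. Counts per gene do not resolve splice forms, so inclusion of exons, including those that lead to decay, was not measured.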

Other observations

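Some genes of these families are listed under older symbols and were not taken by the rule. Hnrpdl, the gene of the hnRNP D-like protein, went from 62.1 ± 5.93 CPM (SD, n = 4) in controls to 119.9 ± 16.3 CPM (set A) or 133 ± 21.0 CPM (set B), a log2 fold change of 0.92 ± 0.16 (SE) and 1.08 ± 0.16 by edgeR with adjusted p of 0.000231 and 4.68e-05. Its relative Hnrnpd had log2 fold changes of 0.24 and 0.30 and did not pass. Hnrpll, the gene of the hnRNP L-like protein, had log2 fold changes of -0.31 and -0.43 (edgeR adjusted p = 0.248 and 0.0852). For 0610009D07Rik, the gene of the branch point subunit Sf3b6, the level was 39.7 ± 4.84 CPM in controls, 20.6 ± 5.06 CPM for set A and 27.0 ± 12.5 CPM for set B. It fell in set A (log2 fold change -0.97 ± 0.29, edgeR adjusted p = 0.0180) and did not pass in set B (-0.58 ± 0.29, adjusted p = 0.171). Sfrs18, now named Pnisr, had log2 fold changes of 0.24 and 0.17 and passed in neither set. Ptbp2, the neuronal PTB gene, was at 42.4 CPM in controls and had log2 fold changes of 0.39 and 0.28 (edgeR adjusted p = 0.194 and 0.375). Ptbp2 belongs to the list of other RNA-binding regulators and was named after its values were seen, and the other genes here were looked up after the lists were set.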
